A study of Rattus norvegicus with 6 samples.

Results

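A set of 10 genes of epithelial cell junctions were described in bulk RNA-seq of rat mammary tumors: the claudins Cldn1, Cldn3, Cldn4, Cldn7 and Cldn8, the tight junction genes Ocln, Tjp1 and Tjp3, the cadherin Cdh1 and the surface adhesion gene Epcam. They were the rows with these 10 symbols, of 30562 rows in the table, and each symbol had 1 row. All 10 were among the 13139 named genes with enough counts to be tested.

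The tumors arose in F344 rats, an inbred strain, after the carcinogen DMBA (65 mg per kg) and a progestin pellet, MPA (50 mg, 90-day release), which every rat of both groups received. The libraries came from 3 tumors of older rats (102, 107 and 116, rats obtained at 19 to 21 months). They also came from 3 tumors of younger virgin rats (157, 158 and 167, obtained at 6 to 8 weeks), each tumor being 1 library. Older tumors were chosen for adequate tissue, whereas every tumor of the younger rats was used, so these numbers are not tumor yields. The ages are those when the rats were obtained, and the carcinogen was given later. The younger rats were bought from Envigo and the older rats came from the National Institute on Aging colonies. The source of the rats therefore cannot be told apart from their age. No untreated mammary gland was among these libraries, so every level is that of a whole tumor, with the stroma and immune cells it held. Tumor 102 is the tumor left without a PAM50 subtype, the class that a panel of breast cancer genes assigns. The age comparison was made with and without it. Read ratios, summed levels, values relative to keratins, the mean of the 10 genes and correlations used all 6 tumors only.

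Tight junctions seal the space between neighboring epithelial cells near their apical side. Claudins and occludin are membrane proteins that form the seal and set which ions pass, and the zonula occludens proteins tie them to actin. E-cadherin, the product of Cdh1, holds cells together in the adherens junction below, and in breast tumors low levels of claudin and E-cadherin transcripts are known as a mark of the claudin-low class.

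Reads per library ranged from 3508571 to 6525830, and 3 counts corresponded to 0.53 to 1.03 CPM, a count scaled to library size by edgeR's TMM method. The 10 most abundant genes took 9.15% to 22.2% of a library. Tumor 102 had the highest of these shares and the lowest mean correlation with the other tumors (0.829, against 0.867 to 0.898). Markers of luminal epithelium were present in every tumor, with a summed level of Krt7, Krt8 and Krt18 of 201.8 to 484.8 CPM in older and 387.3 to 588 CPM in younger tumors (Krt19 was not analysed here). Macrophage and T cell markers were higher in older tumors by sum, but none passed edgeR's test at a Benjamini-Hochberg adjusted p of 0.05. The 8 macrophage and myeloid markers were all higher on average in older tumors. They summed to 240.3 to 421.4 CPM there against 116.8 to 177.3 CPM in younger ones, with none of them at 0. The 6 T and NK cell markers in the table summed to 24.44, 208.9 and 23.83 CPM in the older tumors 102, 107 and 116, so the high end was tumor 107 alone. In the younger tumors they summed to 5.97 to 12.38 CPM, and 1 of the 6 was at 0 in tumors 102 and 158. Their part in the differences below was not tested, and in bulk tissue fewer cells of a type cannot be told apart from less RNA per cell.

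Most of the junction genes differed little between older and younger tumors, and Cldn1 stood apart from the rest. Cldn1 was 6.4-fold higher in the older tumors, Cldn4 and Epcam were lower there without overlap, and the other 7 genes had overlapping groups. In edgeR's quasi-likelihood fit, 0 of the 10 passed a Benjamini-Hochberg adjusted p of 0.05, and neither did any of the 13139 genes (0%), of which 1128 had an unadjusted p under 0.05. At an unadjusted p under 0.05, 1 of the 10 was higher (5.3% of all genes tested were) and 0 were lower (3.29%). The groups did not overlap for 1 gene higher (6.51% of all genes) and 2 lower (5.58%), or 3 of 10 in either direction (12.1%). Of the 10, 8 differed by less than 1.5-fold, and the median log2 fold change of the 10 was -0.21, beside 0 over all genes tested. DESeq2's Wald test called 326 genes (2.48%), 219 of them higher in older tumors (1.67%), and Cldn1 was the 1 junction gene among the 326.

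**Figure D1:**
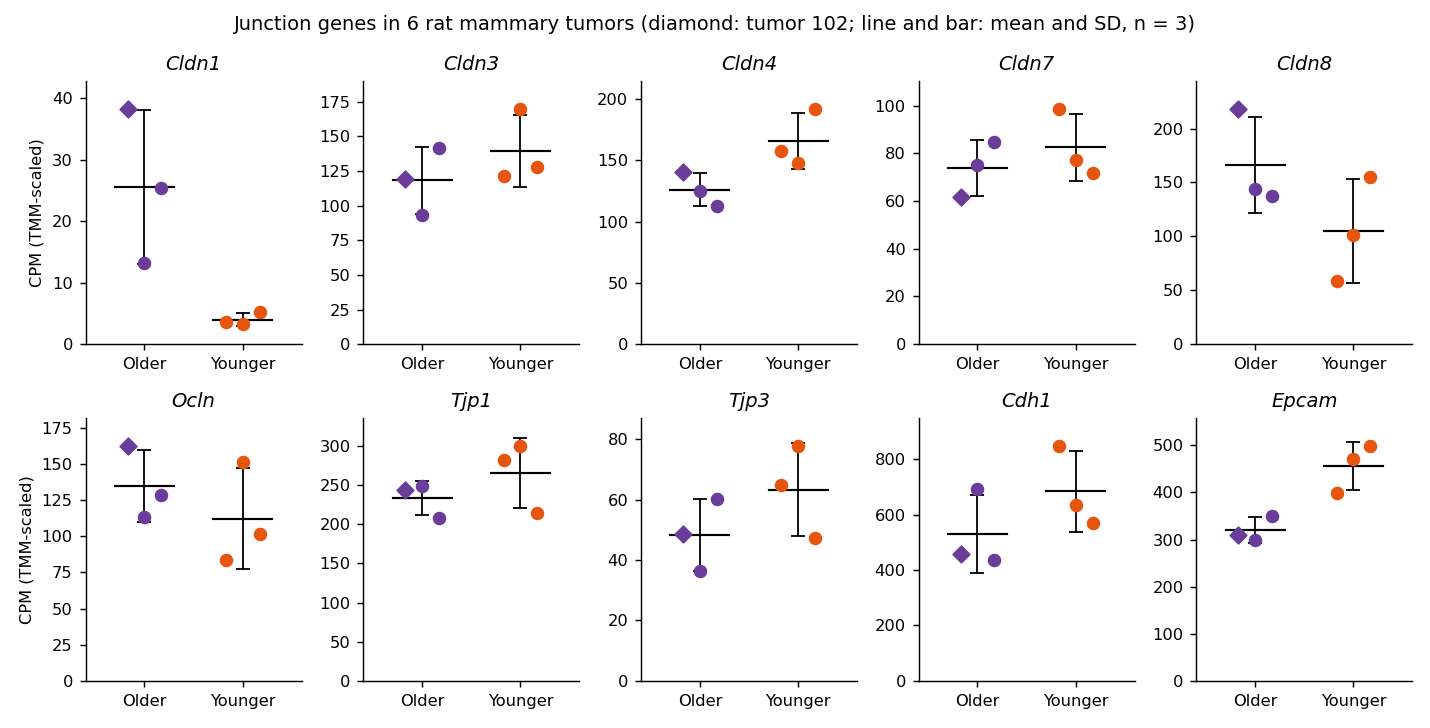
TMM-scaled CPM of each junction gene in the 3 older (purple) and 3 younger (orange) tumors, with the mean and SD of each group; the diamond is tumor 102 and each panel has its own axis from 0. Cldn1 lies at 13.2 CPM or more in every older tumor and at 5.18 CPM or less in every younger one, whereas most other genes overlap.

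Claudin-1 is a sealing claudin of epithelia, best known for the barrier of the skin. Cldn1 stood at 38.2, 13.2 and 25.4 CPM in the older tumors 102, 107 and 116, and at 3.54, 3.26 and 5.18 CPM in the younger tumors 157, 158 and 167. Every older tumor was above every younger one, and tumor 102 was the highest. The reads behind these levels were few but not at the limit, at 111, 58 and 127 counts in the older and 20, 18 and 21 in the younger libraries. The group means were 25.6 ± 12.5 and 3.99 ± 1.04 CPM (SD, n = 3 each), and the log2 fold change was 2.68 (SE 0.48, 95% interval 1.57 to 3.79), a 6.4-fold difference with an interval of 2.96 to 13.8. The edgeR p was 0.000601 before adjustment and 0.235 after it, and 29 of the genes tested had a smaller p.

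The Cldn1 difference did not rest on tumor 102. Without that tumor it was 4.84-fold (log2 fold change 2.28, SE 0.45, edgeR adjusted p = 0.35), and the groups still did not overlap. In that comparison 0 of 13541 genes passed the adjusted threshold (0%), 986 had an unadjusted p under 0.05 (7.28%), and 9.81% did not overlap in the upward direction. The call depended on the test: DESeq2 gave Cldn1 an adjusted p of 7.99e-05 with the same log2 fold change, and limma-voom gave 0.39. Over 14 other fits that gave a p, the adjusted p ran from 7.99e-05 to 0.726, and DESeq2's was the one under 0.05.

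Within each library, the reads of Cldn1 were also set against those of each of the other 9 junction genes, and all 9 ratios were higher in every older tumor than in any younger one. Epcam and Cldn4 separated in the opposite direction by themselves, and the other 7 genes overlapped. Apart from Cldn8 (3.7-fold), these genes varied by 1.44-fold to 2.14-fold between their highest and lowest tumor. Cldn1 itself lay farther apart, from 5.18 CPM in its highest younger tumor to 13.2 CPM in its lowest older one. All ratios but that to Cldn8 therefore had to separate, and they restate the Cldn1 difference without adding to it. The gap was narrowest against Cldn8, with 17.5, 9.18 and 18.5 Cldn1 reads for each 100 Cldn8 reads in tumors 102, 107 and 116 and 6.01, 3.23 and 3.34 in tumors 157, 158 and 167. For each 100 Epcam reads the older tumors 102, 107 and 116 had 12.3, 4.39 and 7.25 Cldn1 reads, and the younger tumors 157, 158 and 167 had 0.887, 0.69 and 1.04. For each 100 Cldn4 reads they had 27.2, 10.5 and 22.5 against 2.25, 2.2 and 2.7. These ratios need no scaling between libraries. On the log2 scale relative to the mean of Krt8 and Krt18 in the same tumor, the difference of Cldn1 was 2.92, again without overlap.

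**Figure D2:**
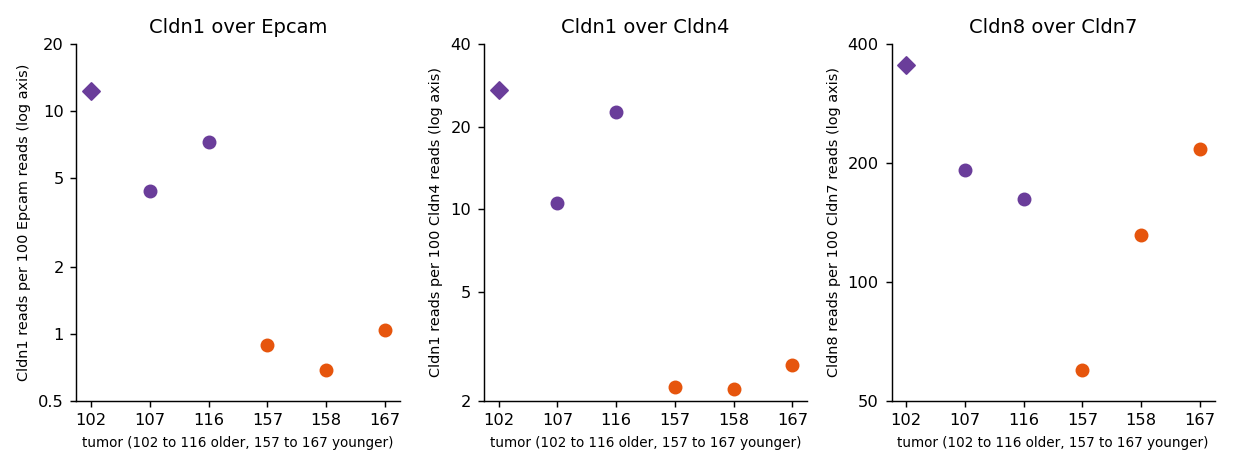
Reads of one junction gene per 100 reads of another in each tumor, on log axes; purple marks older and orange younger tumors, and the diamond is tumor 102. Cldn1 over Epcam runs from 4.39 to 12.3 in older and from 0.69 to 1.04 in younger tumors, whereas Cldn8 over Cldn7 overlaps.

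Upstream sequence was looked up in RefSeq (rat build GRCr8) for the 250 bases before each start, and 8 of the 10 genes had an entry: Cldn1, Cldn3, Cldn7, Cldn8, Ocln, Tjp1, Tjp3 and Epcam. The windows were searched on both strands for the E-box, CAGGTG on one strand and CACCTG on the other, the site bound by the Snail and Zeb repressors that are known to act on Cdh1. Of the 8 windows, 5 held at least 1 match, as did 15.9% of the 33469 rat promoters in the table. Of these 8 genes, Cldn1 is shown as the one with the largest age difference and Epcam as the one lower in every older tumor. Cldn7 is shown as the one with the most matches, and each E-box is in capitals. They lie at chr11:87926126-87926375 on the plus strand (Cldn1), chr6:12649679-12649928 on the minus strand (Epcam) and chr10:55188420-55188669 on the plus strand (Cldn7).
Cldn1: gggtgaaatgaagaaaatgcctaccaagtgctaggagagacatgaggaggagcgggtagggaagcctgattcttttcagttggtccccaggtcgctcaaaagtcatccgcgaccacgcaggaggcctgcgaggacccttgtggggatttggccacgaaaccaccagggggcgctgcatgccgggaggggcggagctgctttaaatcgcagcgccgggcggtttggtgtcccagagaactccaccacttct
Epcam: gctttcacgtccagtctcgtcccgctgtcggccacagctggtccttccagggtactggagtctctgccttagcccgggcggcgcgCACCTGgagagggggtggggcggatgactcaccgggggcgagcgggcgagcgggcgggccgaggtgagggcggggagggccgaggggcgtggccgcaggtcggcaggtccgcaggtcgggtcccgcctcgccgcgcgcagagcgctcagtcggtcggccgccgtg
Cldn7: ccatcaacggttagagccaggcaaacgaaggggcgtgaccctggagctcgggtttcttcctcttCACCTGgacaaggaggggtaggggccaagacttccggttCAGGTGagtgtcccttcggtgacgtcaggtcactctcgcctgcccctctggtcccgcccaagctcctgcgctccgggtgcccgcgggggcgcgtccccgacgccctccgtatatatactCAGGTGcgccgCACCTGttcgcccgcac

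The Cldn1 window held 0 matches and had a GC content of 59.2%, and the Epcam window held 1, starting at position -165 from the start, with a GC content of 75.6%. The Cldn7 window held 4, at -186, -147, -28 and -17, a number of 3 or more being found in 0.236% of all promoters. Ocln had 2 matches, Cldn3 and Tjp3 had 1 each, and Cldn8 and Tjp1 had 0. A match is a run of letters and not a shown binding site, and a window without one says nothing about binding elsewhere. The Sp1-type motif GGGCGG, or CCGCCC when read from the opposite strand, was in 5 of the 8 windows and 30.5% of all promoters, and the TATA box, spelled TATAAA or from the opposite strand TTTATA, was in 0 of the 8 and 12.9% of all promoters.

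Cldn8, which encodes a claudin known to limit the passage of cations, had the next largest difference upward. It stood at 218, 144 and 138 CPM in tumors 102, 107 and 116 and at 58.9, 101 and 155 CPM in tumors 157, 158 and 167. Tumor 102 was the highest and tumor 157 the lowest, and the younger tumor 167 lay above the older tumors 107 and 116, so the groups overlapped. The log2 fold change was 0.67 (SE 0.38, 95% interval -0.23 to 1.56), with an edgeR adjusted p of 0.744, and without tumor 102 it was 0.42 (SE 0.40). Relative to the keratins the difference was 1.2 and the groups no longer overlapped, although the older tumor 116 and the younger tumor 158 were equal to 2 decimals (-0.64).

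Claudin-3 and claudin-4 are the receptors of a clostridial toxin and mark simple epithelia. Cldn4 was measured at 140.5, 125 and 113 CPM in tumors 102, 107 and 116 and at 157, 148 and 192 CPM in tumors 157, 158 and 167. Every older tumor was below every younger one, and the step between tumors 102 and 158 was small. The log2 fold change was -0.39 (SE 0.22, 95% interval -0.91 to 0.13, edgeR adjusted p = 0.736), and -0.48 without tumor 102 (adjusted p = 0.825), again without overlap, where 8.89% of genes did not overlap downward. Relative to the keratins it was 0.07 and the groups overlapped. Cldn3 was measured at 119.5, 93.4 and 141 CPM in the older and at 121.5, 169.5 and 127.6 CPM in the younger tumors in the same order. Tumor 116 lay above 2 of the younger tumors, and the difference was -0.24 (SE 0.26, 95% interval -0.84 to 0.36) on the log2 scale.

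Claudin-7 binds the product of Epcam at the lateral membrane. Cldn7 stood at 61.6, 75.0 and 84.9 CPM in tumors 102, 107 and 116 and at 98.5, 77.3 and 71.6 CPM in tumors 157, 158 and 167. Tumor 102 was the lowest and tumor 157 the highest, with the other 4 interleaved, and the log2 fold change was -0.16 (SE 0.24, 95% interval -0.71 to 0.40). Cldn7 and Cldn8 ran in opposite order over the tumors. For each 100 Cldn7 reads there were 354, 192 and 162 Cldn8 reads in the older and 59.8, 131 and 217 in the younger tumors, so the ratio overlapped between age groups.

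Epcam encodes an adhesion molecule carried by most epithelial cells and carcinomas. Its levels were 309.5, 300.0 and 350.6 CPM in the older tumors 102, 107 and 116 and 398.5, 472 and 499 CPM in the younger tumors 157, 158 and 167. The older tumors lay within a narrow band below all the younger ones. The means were 320.1 ± 26.9 and 456 ± 51.8 CPM (SD, n = 3 each), and the log2 fold change was -0.51 (SE 0.24, 95% interval -1.07 to 0.05), with an edgeR p of 0.0681 and an adjusted p of 0.636. Without tumor 102 the difference was -0.49 (SE 0.28, adjusted p = 0.877), and the groups still did not overlap. Relative to the keratins it was -0.05, with overlap, and Krt8 itself was lower in the older tumors.

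Cdh1 was measured at 459, 693 and 438 CPM in tumors 102, 107 and 116 and at 848, 637 and 569 CPM in tumors 157, 158 and 167. Tumor 107 lay among the younger tumors and the other 2 older tumors lay below them. The log2 fold change was -0.37 (SE 0.31, 95% interval -1.10 to 0.36), with an edgeR adjusted p of 0.851. Tumor 102, at 459 CPM, lay between tumors 116 and 167.

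Occludin and the zonula occludens proteins each differed by less than 1.5-fold. Ocln stood at 162.5, 114 and 129 CPM in the older and at 83.8, 151 and 101.5 CPM in the younger tumors, with a log2 fold change of 0.27 (SE 0.29, 95% interval -0.41 to 0.94). Tjp1, which encodes the scaffold ZO-1, stood at 243, 249 and 208 CPM against 282, 299.8 and 214 CPM, a difference of -0.18 (SE 0.24, 95% interval -0.75 to 0.38). Tjp3, which encodes ZO-3, stood at 48.5, 36.4 and 60.1 CPM against 64.9, 77.8 and 47.4 CPM, a difference of -0.39 (SE 0.29, 95% interval -1.08 to 0.29). Each of the 3 overlapped between the age groups, and tumor 102 was the highest for Ocln only. The edgeR adjusted p was 0.9 for Ocln, 0.916 for Tjp1 and 0.823 for Tjp3.

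**Figure D3:**
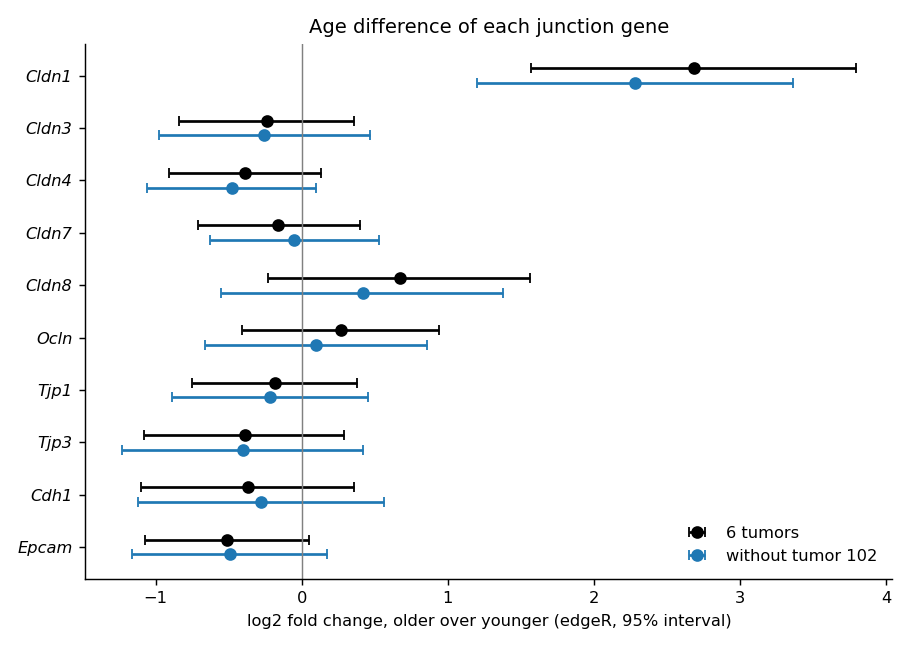
Log2 fold change of each junction gene, older over younger, with its 95% interval from edgeR, for all 6 tumors (black) and without tumor 102 (blue). The interval of Cldn1 lies above 0 in both (1.57 to 3.79 and 1.2 to 3.36), and those of the other 9 genes include 0.

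By sign, 3 of the 10 genes were higher and 7 lower in older tumors. Over all genes tested, 6616 of 13139 were lower by sign, and 7191 of 13541 without tumor 102. Relative to Krt8 and Krt18 the sign of 6 of the 7 turned, leaving Epcam at -0.05. The summed level of the 10 genes was 1801, 1842 and 1687 CPM in the older and 2117, 2136 and 1982 CPM in the younger tumors, without overlap. That sum leans on Cdh1 and Epcam, which had the most reads in every tumor, and Epcam separated the groups by itself. With each gene centred and weighted equally, the mean overlapped, at 0.19, -0.08 and 0.09 against -0.15, 0.02 and -0.06. The sum is therefore not a fall shared by the 10 genes. A luminal keratin was also lower in every older tumor: Krt8 was measured at 158, 100.2 and 272 CPM in the older and 284, 283 and 337 CPM in the younger tumors. Its log2 fold change was -0.77 (SE 0.37, edgeR adjusted p = 0.657). Krt18 differed by -0.08 (SE 0.42) and Krt7 by -0.30 (SE 0.75) on the log2 scale, both overlapping.

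Tumor 102 was not set apart by low levels of the claudins described above or of Cdh1. It was the highest of the 6 tumors for Cldn1, Cldn8 and Ocln (3 of 10, where 25.7% of all genes tested were highest in it) and the lowest for Cldn7 (1 of 10, where 27.3% were lowest in it). The other 6 genes lay within the range of the other 5 tumors, as did 47% of all genes. None of the 10 was at least 2-fold below the mean of the other 5 tumors (13.4% of all genes were), and Cldn1 was the 1 gene at least 2-fold above (11.5%). Of 4 other claudins and claudin-like genes tested, Cldn23 was lowest in tumor 102 and Cldn12 highest. Cldn9 stood at a log2 difference of -1.13 from the mean of the other 5 tumors, and Cldnd1 at 0.17. This tumor is 1 library that was set apart by its own expression, so these are descriptions with no test.

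The differences of log2 CPM from the mean of the other 5 tumors ran from -0.44 to 0.95 for 9 genes. Cdh1 stood at -0.44, Cldn7 at -0.39 and Epcam at -0.36, and Cldn8 stood at 0.95 and Ocln at 0.52. Cldn3, Cldn4, Tjp1 and Tjp3 were between -0.19 and -0.03. Cldn1, at 2.31 or 4.95-fold above the mean of the others, was at the percentile 98.2 of all genes tested. Those 5 tumors include the 3 younger ones in which Cldn1 was low, and tumor 102 was above both other older tumors too.

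Other compartments of tumor 102 differed more than most of the junction genes described above. Some desmosome and adherens junction genes outside that set also lay far from the mean of the other tumors on the log2 scale. Among them, Cdh3 (-3.37) and Dsp (-3.15) were below it, and Dsg2 (1.7) and Afdn (1.47) were above it. All 7 basal and myoepithelial markers tested were at least 2-fold below the mean of the other tumors, with a summed level of 466.8 CPM against 820 to 2889 CPM. All 8 fibroblast markers were at least 2-fold above, with a sum of 1463 CPM against 146.4 to 1102 CPM, and the adipocyte markers summed to 196.2 CPM against 13.82 to 44.55 CPM. None of these 3 lists had a gene at 0 in tumor 102. Their part in the levels of the junction genes was not tested.

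**Figure D4:**
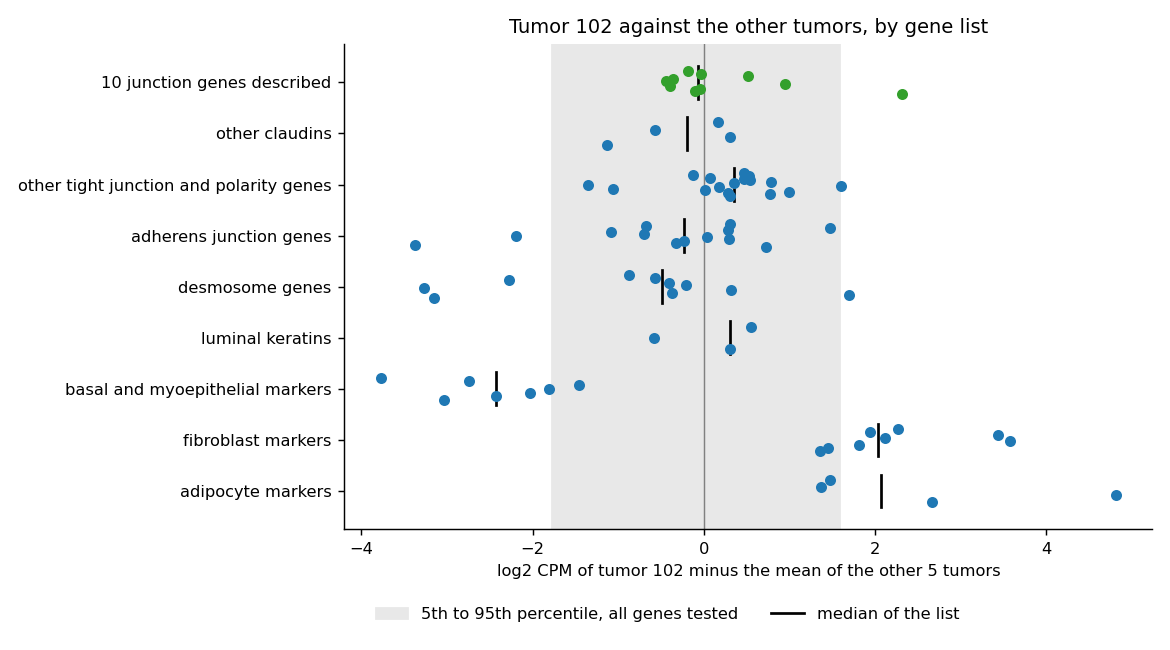
Log2 CPM of tumor 102 minus the mean of the other 5 tumors, 1 point per tested gene, by gene list; the black line is the median of a list and the grey band spans the 5th to 95th percentile of all genes tested (-1.77 to 1.59). Of the 10 junction genes, 9 lie inside the band and Cldn1 lies above it at 2.31, whereas basal markers lie below 0 and fibroblast and adipocyte markers above.

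Desmosomes, the spot junctions that anchor keratin filaments, were compared as the neighbors of these junctions. Of 10 desmosome genes tested, 9 were lower by sign in older tumors, 4 had an unadjusted p under 0.05 (3.29% of all genes in that direction), 3 did not overlap (5.58%), and none passed adjustment, with a median log2 fold change of -0.66 beside 0 over all genes. Pkp1, the plakophilin of stratified epithelia, was measured at 5.85, 1.14 and 2.60 CPM in tumors 102, 107 and 116 and at 29.7, 15.9 and 8.15 CPM in tumors 157, 158 and 167. Dsp, encoding the linker desmoplakin, was measured at 24.4, 83.2 and 162 CPM against 530.2, 174 and 412 CPM in the same order. In both genes every older tumor was below every younger one, with log2 fold changes of -2.53 (SE 0.70, edgeR adjusted p = 0.342) and -2.05 (SE 0.69, adjusted p = 0.432).

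Without tumor 102, 8 of 10 desmosome genes were lower by sign, 3 had an unadjusted p under 0.05 (7.28% of all genes in either direction), and the median was -0.80, beside -0.03 over all genes. The summed desmosome level was 479.9 to 586.6 CPM in older and 638.6 to 1254 CPM in younger tumors. Basal and myoepithelial cells also carry such genes, and their 7 markers were all lower by sign, at summed levels of 466.8 to 2779 CPM in older and 2012 to 2889 CPM in younger tumors. Their part in the desmosome values was not tested. Dsc3 was chosen after its values were seen, as the desmosome gene farthest down in tumor 102: it stood at 8.26 CPM there and at 33.2 to 137.5 CPM in the others.

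The partners of Cdh1 in the adherens junction were mostly lower by sign, with 10 of 13 lower, 2 at an unadjusted p under 0.05 (3.29% of all genes in that direction), none past adjustment and a median of -0.22. Cdh3, the P-cadherin of myoepithelial cells, was measured at 2.75, 23.9 and 15.2 CPM in the older and 73.7, 54.5 and 24.4 CPM in the younger tumors. Tumor 102 was the lowest by far, and the step between tumors 107 and 167 was narrow. The log2 fold change of Cdh3 was -1.85 (SE 0.70, edgeR adjusted p = 0.504). Nectin1, an adhesion receptor that recruits cadherins, was measured at 35.5, 141 and 92.3 CPM against 299, 265 and 112 CPM, with overlap and a log2 fold change of -1.33 (SE 0.55, adjusted p = 0.56). Without tumor 102, 8 of 13 were lower by sign and 1 had an unadjusted p under 0.05, Cdh3 (7.28% of all genes in either direction).

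The remaining tight junction and polarity genes did not share a direction. Of 17 tested, 13 were higher and 4 lower by sign with tumor 102, and 8 and 9 without it, and none had an unadjusted p under 0.05 in either comparison. Lsr, the tricellular junction receptor, was measured at 59.2, 100.2 and 114 CPM in the older and 131.5, 137 and 143 CPM in the younger tumors, a log2 fold change of -0.59 (SE 0.28). Cgn, encoding the plaque protein cingulin, was measured at 163, 88.4 and 94.1 CPM against 73.2, 78.5 and 78.01 CPM, a log2 fold change of 0.59 (SE 0.29). The groups overlapped in neither gene, and the edgeR adjusted p was 0.649 for Lsr and 0.657 for Cgn. Of 16 other claudins and claudin-like genes, 14 were in the table and 4 had enough counts to test, 3 higher and 1 lower by sign. Cldn23 was lower at 3.79, 4.09 and 4.01 CPM against 6.19, 6.69 and 9.63 CPM (log2 fold change -0.91, SE 0.40, adjusted p = 0.588), and Cldnd1 differed by 0.05 (SE 0.31).

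The epithelial surface genes were lower by sign in 8 of 9 cases, as Epcam was, with a median log2 fold change of -0.26 beside 0 over all genes, and none passed adjustment. Ap1m2, an adaptor of epithelial sorting, was measured at 45.8, 49.3 and 69.5 CPM in the older and 83.1, 108 and 63.7 CPM in the younger tumors. The younger tumor 167 lay below the older tumor 116, so the groups overlapped, and the log2 fold change was -0.63 (SE 0.29, edgeR adjusted p = 0.618). Without tumor 102, 9 of 9 surface genes were lower by sign.

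Among 10 transcription and splicing factors of epithelia, 8 were lower by sign, 1 had an unadjusted p under 0.05 (3.29% of all genes in that direction) and none passed adjustment, with a median of -0.28. Klf5 was measured at 44.8, 24.1 and 30.2 CPM in the older and 67.4, 58.1 and 48.9 CPM in the younger tumors, without overlap, a log2 fold change of -0.82 (SE 0.30, edgeR adjusted p = 0.49). Grhl2, which is known to activate Cdh1 and claudin genes, was measured at 82.6, 76.4 and 83.9 CPM against 118, 104 and 98.5 CPM. It did not overlap either, at a log2 fold change of -0.40 (SE 0.20, adjusted p = 0.682). Without tumor 102, 8 of the 10 were lower by sign and 2 had an unadjusted p under 0.05 (7.28% of all genes in either direction).

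The repressors of Cdh1 showed no shared direction, with 2 higher and 3 lower by sign of 5 tested. Zeb2 was measured at 152, 101.4 and 39.1 CPM in the older and 54.5, 47.9 and 48.4 CPM in the younger tumors, a log2 fold change of 0.95 (SE 0.45, edgeR adjusted p = 0.636). Its 2 highest levels were in tumors 102 and 107, while tumor 116 was the lowest of the 6. Twist1 was lower in every older tumor, at 1.38, 2.73 and 6.81 CPM against 14.5, 9.77 and 23.2 CPM, a log2 fold change of -2.07 (SE 0.62, adjusted p = 0.372). Snai1 differed by -0.69 (SE 0.70), Snai2 by -0.31 (SE 0.57) and Zeb1 by 0.29 (SE 0.37), all with overlap, and Twist2 had 1 to 13 counts and was not tested. In tumor 102, Zeb1 and Zeb2 were at their highest and Snai2 and Twist1 at their lowest. Fibroblasts also express several of these genes, and their markers summed highest in that tumor (1463 CPM). In tumor 107, the next highest for Zeb2, fibroblast markers summed to 165.5 CPM and macrophage and myeloid markers to 421.4 CPM. The part of these cells in the repressor levels was not tested. Without tumor 102, 6 repressors were tested, 4 higher and 2 lower by sign.

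Of 5 connexins tested, the channel proteins of gap junctions, 4 were lower by sign, with a median of -0.65. Gja1, encoding connexin-43, was measured at 127, 63.9 and 79.7 CPM in the older and 325, 134 and 215 CPM in the younger tumors. The groups did not overlap, by a narrow step between tumors 102 and 158, and the log2 fold change was -1.32 (SE 0.40, edgeR adjusted p = 0.374). Without tumor 102, 7 connexins were tested, all lower by sign (7191 of 13541 genes were), and 1 had an unadjusted p under 0.05 (7.28% of all genes in either direction).

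The 10 junction genes did not vary as 1 block over the tumors. Of their 45 pairs, 25 had a Pearson's r above 0 and 20 below 0, over 6 tumors, given as a description. Cldn3 and Tjp3 had the highest r (0.89, Spearman's rho 0.71), followed by Cldn1 and Cldn8 (0.75, rho 0.71) and Cldn4 and Epcam (0.74, rho 0.77). Cldn7 and Cldn8 had the lowest (-0.90, rho -0.94). Cldn1 ran against Epcam (-0.79, rho -0.66) and Cdh1 (-0.77, rho -0.66), and Cldn8 against Cdh1 (-0.79, rho -0.54). The age groups enter these values, since Cldn1, Cldn4 and Epcam each separate them.

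**Figure D5:**
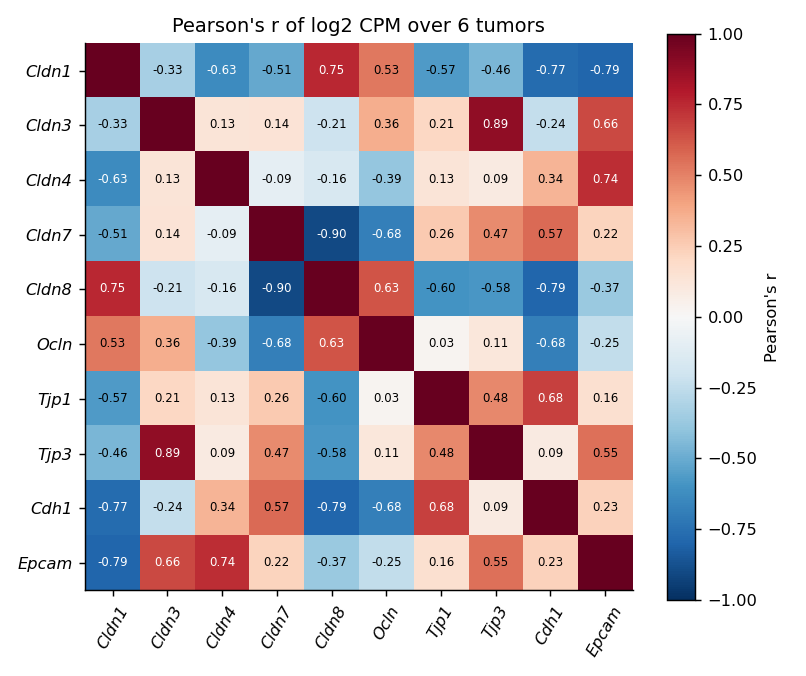
Pearson's r of log2 CPM between each pair of junction genes over the 6 tumors, from -1 (blue) to 1 (red). Cldn3 and Tjp3 reach 0.89 and Cldn7 and Cldn8 reach -0.90, and positive and negative values are mixed.

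The mean of the 10 genes, each centred on its own average log2 CPM, was 0.19, -0.08 and 0.09 in tumors 102, 107 and 116 and -0.15, 0.02 and -0.06 in tumors 157, 158 and 167. Without Cldn1 it was -0.01, -0.14 and -0.05 against -0.02, 0.19 and 0.03, so the place of tumor 102 at the top came from Cldn1. Of 10310 genes with a mean of at least 10 CPM, those whose log2 CPM ran most like the 10-gene mean were Sult5a1 (r = 0.99), Ero1b (0.986), Cep68 (0.983), Ifrd1 (0.981) and Bet1 (0.978), over 6 tumors. With so few tumors a high r is easily met among many genes, and no likeness of function is read from it.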

How the data were processed

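Bulk RNA-seq was measured in 3 older and 3 younger tumors. The authors trimmed reads with Trimmomatic 0.38, aligned them with STAR 2.7.9a, marked duplicates with Picard 2.18.12 and deposited HTSeq 0.13.5 read counts per gene, without normalization (tools per the submitters' processing notes; the genome build and annotation of the counting are not given in the sources used here). The labels give reads of 100 bases where the protocol gives 150, and polyA RNA where the protocol gives rRNA depletion. The table was mapped by tumor ID, and 0 columns were unused. Rows without a gene name (4367 of 30562 rows, 2.17% to 3.64% of counts) were left out of tests and library sizes.

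The fit used edgeR 4.0.16 under R 4.3.3 (TMM, filterByExpr by age group, quasi-likelihood test with no covariate, Benjamini-Hochberg adjustment over 13139 genes, threshold 0.05). Intervals are 95%, and those of edgeR were calculated back from the F statistic. CPM are counts over TMM-scaled library sizes, and log2 CPM used a prior count of 2. DESeq2 1.42.0, limma 3.58.1 (voom), other scalings and filters, and leaving out each tumor were alternatives. Keeping rows without a gene name was an alternative chosen after seeing the data. The steps were tested on simulated data. CPM are not scaled by gene length, so levels were not compared between genes. The counting setting for strand is not given, so reads of overlapping or antisense genes cannot be told apart. The age groups also differ in the source of the rats. Nothing says whether any rats shared a litter or cage, and p-values measure the spread between these tumors.

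All 10 junction genes are described. From the other lists (155 genes in 17 lists in all, cell type markers included), the text names the 2 genes with the smallest unadjusted p in each junction or epithelial list, all Cdh1 repressors and all luminal keratins; 2 genes this rule names are not reported here. The genes and lists were chosen with earlier results of these data known. The list names Trp63 and Mylpf were matched through RefSeq synonyms. Promoter windows and motifs are from RefSeq (GRCr8).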

Additional observations from a re-analysis of the deposited data

How the results depend on the processing

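Depth limits Cldn1 most, with 18 to 127 counts a tumor, and with 3 tumors a group an exact permutation test of 1 gene cannot go below a p of 0.1. The number of genes past the adjusted threshold was 0 with edgeR (1128 at an unadjusted p under 0.05) and limma-voom but 326 with DESeq2's Wald test, and the number of junction genes past it was 0 and 1. Leaving out each tumor gave 0 in every case for both counts. The number of junction genes not overlapping between age groups, 3 with all tumors, ran from 3 to 6 when each tumor was left out: 6 without the younger tumor 167 (Cldn8, Tjp1 and Tjp3 added), and 4 with library totals alone (Tjp1 added). Relative to Krt8 and Krt18 it was 2, Cldn1 and Cldn8, and Cldn4 and Epcam overlapped. With fewer tumors more genes of any kind separate. Over all genes, 9.81% did so upward and 8.89% downward without tumor 102, against 6.51% and 5.58% with all tumors. The share over all genes is not given for the other settings, so a larger count there cannot be read as a result about the junction genes. The number lowest in tumor 102, 1 with TMM (27.3% of all genes), was 4 with library totals alone (Cldn7, Cdh1, Epcam and Tjp1) and 0 relative to the keratins. Tumor 102 had the lowest TMM factor (0.861), so library totals place its genes lower in general. The share of all genes lowest in it is not given for that scaling, and the 4 cannot be read without it. Relative to Krt8 and Krt18 the log2 difference turned to 0.22 for Cldn3, 0.07 for Cldn4, 0.31 for Cldn7, 0.08 for Cdh1, 0.29 for Tjp1 and 0.07 for Tjp3. The same keratin mean was subtracted from every gene of a tumor, so these turns come from a shift common to all the genes. Krt8 was lower in older tumors (log2 fold change -0.77) and Krt18 differed by -0.08. Why the keratins differed was not tested. Of 150 log2 fold changes of the junction genes under alternatives, 143 kept their direction and their side of the threshold, and the log2 fold change of Cldn1 ran from 2.28 to 2.99 when each tumor was left out. No paired analysis was possible because the tumor IDs of the 2 age groups share no number.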
